A study of Mus musculus with 12 samples.

Results

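Small RNA libraries made with Mtdh guides were compared directly with small RNA libraries made with Miat guides, with no control library in the comparison. The members were chosen by their labels: 4 libraries with Mtdh guides and 4 with Miat guides, 8 of the 12 libraries of the series. All came from stem-like medulloblastoma cells taken from mouse cerebellum with the genotype Math1-Cre; SmoM2, so both groups carry an active form of Smoothened that Cre switches on in cells expressing Math1, chiefly granule neuron precursors. The series is titled as a CRISPR depletion of the long non-coding RNA Miat. The Mtdh group, labelled Mtdh knockdown, holds guide sgMtdh-1 (libraries Mtdh 1-1 and 1-2) and guide sgMtdh-2 (Mtdh 2-1 and 2-2). The Miat group, labelled Miat knockdown, holds sgMiat-6 (Miat 6-1 and 6-2) and sgMiat-96 (Miat 96-1 and 96-2). The remaining 4 libraries carry the control guide sgGal4-4 and are labelled WT. Their levels are given below for orientation only. The control libraries differed from both groups in composition. The ribosomal precursor Rn45s took 55.2% ± 1.17 of all control counts, against 72.1% ± 5.83 with Mtdh guides and 75.0% ± 5.95 with Miat guides. Age, the form of Cas9 and the number of cultures or clones behind the libraries were not stated in the sources used here. The p-values below therefore reflect library-to-library spread, part of which may be technical.

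Mtdh encodes an RNA-binding scaffold protein, also called astrocyte elevated gene 1, that associates with the nuclease SND1, and Miat is a nuclear long non-coding RNA. The RNAs counted here have known routes of manufacture. miRNA precursors are cut from primary transcripts by Drosha and Dicer and yield short guides that Argonaute proteins use to repress mRNAs. Small nucleolar RNAs (snoRNAs) are mostly released from introns of host genes: the C/D box class guides 2'-O-methylation of ribosomal RNA, the H/ACA box class guides pseudouridylation, and the related Cajal body RNAs guide the same changes on spliceosomal RNAs.

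The sequences of Snora81 and Snord49a are shown because Snora81 was 1 of the 2 rows that passed the test and Snord49a ranked next. Both were read from GENCODE M21 (GRCm38), with Snora81 printed over its RefSeq extent. Snora81, an H/ACA box snoRNA, lies at chr16:23110770-23110933 on the plus strand, in an intron of Eif4a2, which encodes a translation initiation helicase. Snord49a, a C/D box snoRNA, lies at chr11:62603450-62603521 on the plus strand, in an intron of the processed transcript 2410006H16Rik. Capitals mark, in Snora81, the 3 bases that stand 3 bases before the 3' end, where this class carries its ACA box or a variant of it. In Snord49a they mark the C box TGATGA and the D box CTGA, searched on the transcript strand. The RefSeq gene of Snord49a starts at 62603460, so most of the marked C box lies before it. TGATGA is present in 75.5% and CTGA in 100% of the 98 GENCODE Snord models.
Snora81: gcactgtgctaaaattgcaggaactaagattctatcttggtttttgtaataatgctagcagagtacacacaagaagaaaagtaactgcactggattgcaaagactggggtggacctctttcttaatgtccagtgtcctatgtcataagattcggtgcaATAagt
Snord49a: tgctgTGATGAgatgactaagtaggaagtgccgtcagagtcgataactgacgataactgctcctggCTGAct

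The mature sequences of 3 miRNAs are shown because their precursors carry the miRNA group results. The precursor Mir30d passed the test, Mir30a was its only family member with enough counts to test, and Mir92-1 and Mir20a belong to the miR-17-92 cluster. The sequences are from RefSeq (GRCm38.p6), with the seed, bases 2 to 8, in capitals. The 3 seeds differ, and none is shared between the families. Their mature positions are chr1:23272274-23272295, chr14:115044476-115044496 and chr14:115044183-115044205, all on the plus strand.
miR-30a-5p: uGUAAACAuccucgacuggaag
miR-92a-3p: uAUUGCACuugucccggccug
miR-20a-5p: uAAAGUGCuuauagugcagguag

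Total counts per library were 82457 to 161038 in the Miat group and 22785 to 152115 in the Mtdh group, where Mtdh 1-1 (22785) and Mtdh 2-2 (32967) were the shallow libraries. Of 4044 distinct rows in the count tables, 1617 had a count in at least 1 of the 8 libraries and 138 had enough counts to test. These 138 rows held 96.9% to 98.5% of the counts of a library. Spearman correlations over the tested rows were 0.758 to 0.929 between libraries of 1 guide, 0.686 to 0.822 between guides of 1 target and 0.547 to 0.855 across targets, so the ranges overlapped. Markers of other cells were nearly absent: 16 miRNA precursors of differentiated neurons summed to 0 to 9 counts in a library and 20 of non-neural cells to 0 to 4, and Mir124a-1, Mir124a-2, Mir124a-3, Mir122a and Mir142 were at 0 in all 8 libraries.

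Of the 2 targets, only counts at the Miat row were examined. The Miat row held 49 and 30 counts in the libraries labelled sgMiat-6, 1 and 0 in those labelled sgMiat-96, 0, 0, 2 and 0 in the Mtdh group and 0, 1, 1 and 1 in the control. Per 1000000 counts this was 283 (95% exact Poisson interval 224 to 352) for sgMiat-6, 6.04 (0.153 to 33.7) for sgMiat-96, 5.61 (0.679 to 20.3) for the Mtdh group and 15.9 (3.29 to 46.6) for the control. These intervals cover counting error only. The row counts short fragments, and the control counts of 0, 1, 1 and 1 are too few to show a fall, so depletion of Miat was not tested. In the libraries labelled sgMiat-6 the row was higher than in every other library, the opposite of the direction that their knockdown label names. Each direction given below for the Miat group therefore refers to libraries labelled with these guides. The Mtdh transcript was not analysed here.

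Between the targets, 2 of 138 rows passed (edgeR quasi-likelihood test, Benjamini-Hochberg adjusted p under 0.05; 1.45%). The precursor of Mir30d was higher with Mtdh guides, and the snoRNA Snora81 was lower with Mtdh guides. Another 21 rows had an unadjusted p under 0.05, which makes 23 (16.7%), of which 9 were higher and 14 lower with Mtdh guides. Among these 23, Mir17hg and Mir92-1, Snord45c and Rabggtb, and the 2 variants of B230208H11Rik are pairs with nearly the same counts. The number of distinct RNAs is therefore smaller. The 4 Mtdh and 4 Miat libraries did not overlap in 11 rows (7.97%), 4 of them higher and 7 lower with Mtdh guides. Over all tested rows 54 were higher and 84 lower, with a median log2 fold change of -0.18. With the libraries labelled sgMiat-96 left out the count of calls was 35 (16 higher, 19 lower, of 237 rows tested), and with those labelled sgMiat-6 left out it was 2.

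**Figure D1:**
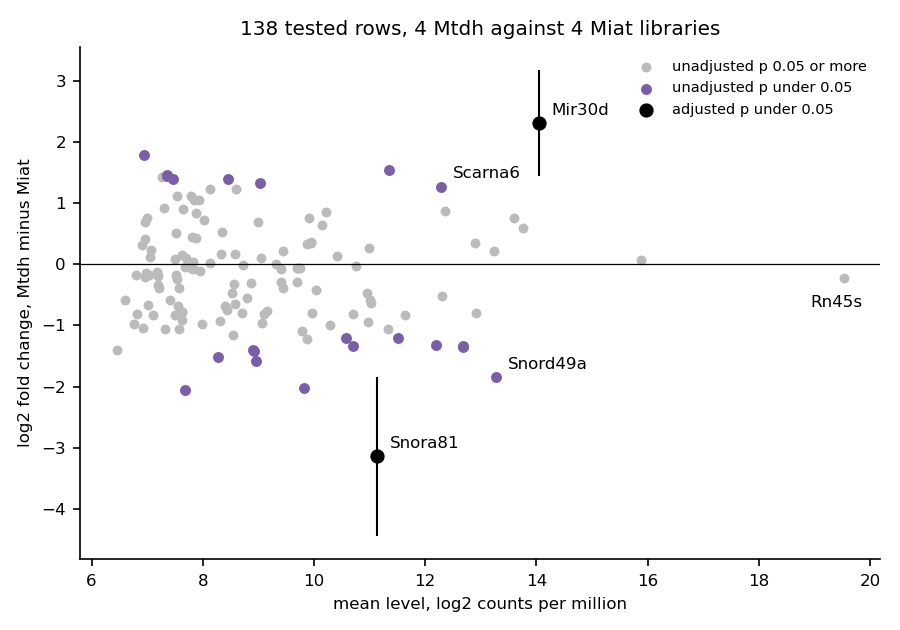
Log2 fold change (Mtdh minus Miat) against mean level in log2 CPM for the 138 tested rows, with 95% intervals for the rows past the adjusted threshold. Mir30d at 2.31 and Snora81 at -3.14 stand outside the main cloud, and Rn45s, the most counted row, lies at -0.23.

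Mir30d lies at chr15:68341208-68341289 on the minus strand (GRCm38.p6), over an exon of the long non-coding RNA Gm20732. Its mature miRNA belongs to the miR-30 family, whose members share the seed shown for miR-30a-5p. Mir30d had 6436, 6320, 5215 and 4753 normalised CPM (counts per 1000000, scaled by the trimmed mean of M values) in Miat 6-1, 6-2, 96-1 and 96-2. In Mtdh 1-1, 1-2, 2-1 and 2-2 it had 23073, 17961, 41413 and 30132 CPM. All Mtdh libraries were above all Miat libraries, and the lowest Mtdh library, 1-2, was also the deepest of its group.

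The Mir30d group means were 28145 ± 10156 CPM with Mtdh guides and 5681 ± 828 CPM with Miat guides (SD, n = 4 each). The log2 fold change was 2.31 (SE 0.42, 95% interval 1.45 to 3.17, edgeR adjusted p = 0.00204). With the sgMtdh-2 libraries left out, 2 against 4, the log2 fold change was 1.84 and the adjusted p = 0.186. The Miat libraries lay within a narrow range, whereas the Mtdh libraries spread over a wider one. Scaled with all 12 libraries, the 4 control libraries had 26338 ± 2841 CPM, against 35673 ± 14771 with Mtdh guides and 6618 ± 146 with Miat guides. On that scale every Miat library was below the control range of 22392 to 28918 CPM. That scale spans libraries of unlike composition, the control having a lower share of Rn45s.

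The same difference can be described within the miRNA class. Mir30d had 1.64, 0.892, 2.49 and 2.37 counts per count of all other miRNA precursors together in Mtdh 1-1, 1-2, 2-1 and 2-2. In the Miat libraries this ratio was 0.271, 0.274, 0.177 and 0.276, so Mir30d had fewer counts than the rest of its class in all 4. The mean ratios were 1.85 ± 0.740 and 0.249 ± 0.0483 (SD, n = 4 each; no test, since Mir30d was already called), with 1.10 ± 0.130 in the control. Without Mir30d, miRNA precursors made up 6.92% ± 1.56 of the counts outside Rn45s with Mtdh guides and 9.34% ± 2.67 with Miat guides (exact permutation p = 0.2, n = 4 each).

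Other members of the miR-30 family were scarce. All 7 family rows had counts, and 2 passed the filter on low counts. Mir30a had 116, 281, 124 and 90.0 CPM in the Miat libraries and 215, 150, 543.7 and 169 CPM in the Mtdh libraries, a log2 difference of 0.84 (SE 0.59, adjusted p = 0.43) with overlapping groups. Mir30b had 6, 1, 4 and 0 counts in the Miat libraries and 4, 1, 3 and 6 counts in the Mtdh libraries.

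Snora81 went the other way. It had 3045, 2888, 3052 and 6956 CPM in Miat 6-1, 6-2, 96-1 and 96-2, and 644, 389, 102 and 724 CPM in Mtdh 1-1, 1-2, 2-1 and 2-2. The lowest Miat library was well above the highest Mtdh library. Behind these levels stood 421, 308, 319 and 464 counts in the Miat libraries and 18, 57, 13 and 30 counts in the Mtdh libraries. The Mtdh values thus rest on few counts, and 3 counts correspond to 107 CPM in Mtdh 1-1 and 72.4 CPM in Mtdh 2-2.

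Mean Snora81 levels were 465 ± 281 CPM with Mtdh guides and 3985 ± 1982 CPM with Miat guides (SD, n = 4 each). The fitted log2 fold change was -3.14 (SE 0.63, 95% interval -4.44 to -1.84, edgeR adjusted p = 0.00378). Leaving out Mtdh 1-1 gave a log2 fold change of -3.33 and an adjusted p = 0.06, over 171 rows tested; without both Mtdh libraries under 50000 counts, a choice made after seeing the data, these were -3.88 and 0.132. With either Mtdh guide left out the adjusted p was 0.256 (without sgMtdh-1) and 0.186 (without sgMtdh-2). On the scale of all 12 libraries the control had 566 ± 209 CPM, Mtdh 577 ± 360 CPM and Miat 4888 ± 3058 CPM, so it was the Miat libraries that stood away from the control level. No test against the control was made here, and the control libraries had a lower Rn45s share than both groups (55.2% ± 1.17 of all counts).

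**Figure D2:**
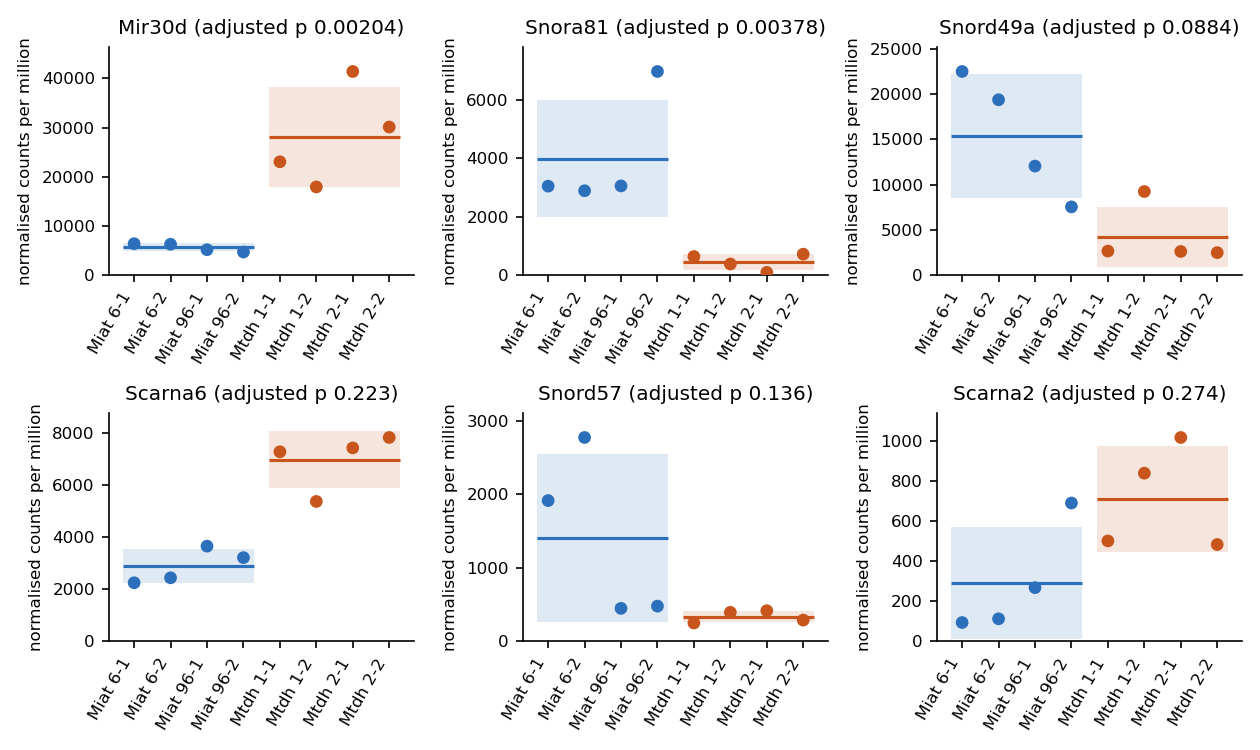
Normalised CPM of 6 RNAs in the 4 Miat and 4 Mtdh libraries; lines are group means and bands 1 SD. Mir30d, Snora81, Scarna6 and Snord57 show no overlap between targets, while Snord57 and Scarna2 also differ between the 2 Miat guides (log2 differences of -2.33 and 2.19).

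Snora81 can also be described as a share of its class, which restates the difference above in another unit. It made up 60.6%, 53.2%, 47.1% and 73.8% of all H/ACA snoRNA counts in the Miat libraries, and 20.5%, 16.8%, 9.22% and 16.8% in the Mtdh libraries. The means were 58.6% ± 11.5 and 15.8% ± 4.72 (SD, n = 4 each; no test, since Snora81 was already called), with 14.96% ± 4.88 in the control. The other H/ACA snoRNAs together were 1.07% ± 0.410 of the counts outside Rn45s in the Miat group and 0.867% ± 0.391 in the Mtdh group (exact permutation p = 0.514, n = 4 each).

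The host gene of Snora81 carries a second snoRNA, the C/D box Snord2, in an intron at chr16:23108953-23109020. The log2 fold change of Snord2 was -0.29, against -3.14 for Snora81. Snora81 had 2.38, 2.93, 5.60 and 9.87 counts per Snord2 count in the Miat libraries. In Mtdh 1-1, 1-2 and 2-1 this was 0.600, 0.750 and 0.0890, but in Mtdh 2-2 it was 5.0. The groups therefore overlapped in this ratio (5.20 ± 3.42 against 1.61 ± 2.28; SD, n = 4 each).

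**Figure D3:**
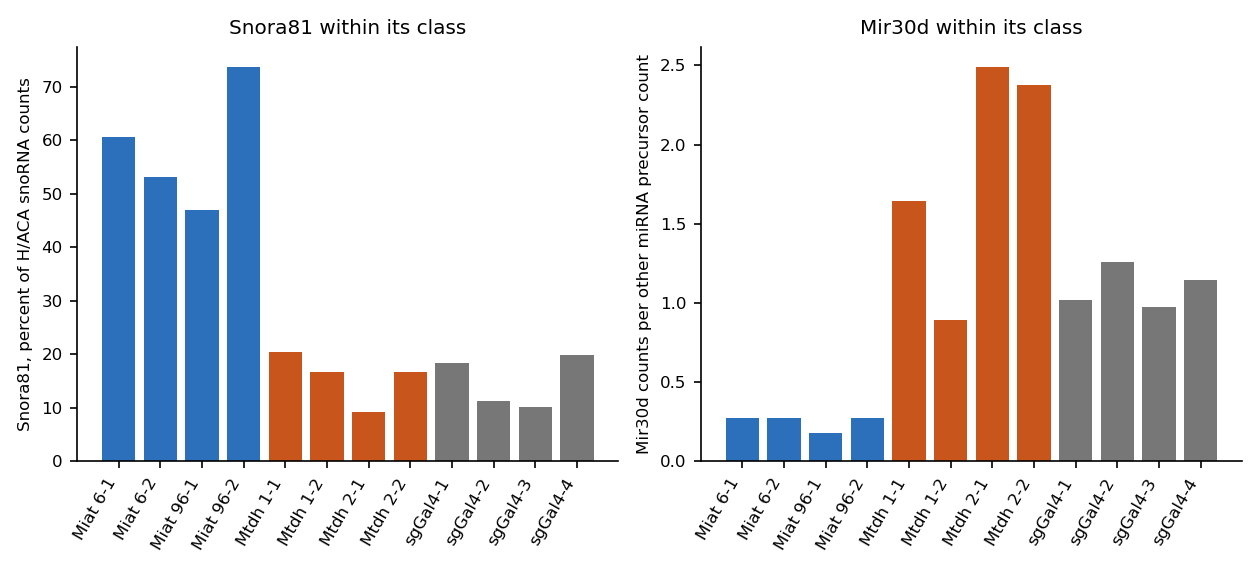
Snora81 as a percentage of H/ACA snoRNA counts (left) and Mir30d counts per count of all other miRNA precursors (right) in each of the 12 libraries, Miat in blue, Mtdh in orange and control in grey. The Miat bars stand apart in both plots, and the Mtdh bars lie on the control side.

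Each target had 2 guides, so the comparison can be read in 4 guide pairs of 2 libraries against 2. The rows past the adjusted threshold (edgeR, 1 term per guide) were 23 for sgMtdh-1 against sgMiat-6 (16.7%), 10 for sgMtdh-2 against sgMiat-96 (7.25%), 2 for sgMtdh-1 against sgMiat-96 (1.45%) and 40 for sgMtdh-2 against sgMiat-6 (29%). In all, 46 rows were called in at least 1 pair, 24 of them in a single pair, and 42 in a pair with sgMiat-6. Of those 42 rows, 22 were also called between the 2 Miat guides, which differed in 31 rows (22.5%), 13 higher and 18 lower with sgMiat-96. These contrasts share libraries, so the counts are not independent. The 2 Mtdh guides differed in 0 rows (0%) by edgeR, with 8 rows at an unadjusted p under 0.05. Each Mtdh guide had 1 deep and 1 shallow library, with a Spearman correlation of 0.758 between them for both guides. The shallow libraries Mtdh 1-1 and 2-2, of different guides, had 0.782. Libraries of 1 Miat guide had 0.929 and 0.884. A count of 0 therefore does not show that the Mtdh guides agreed.

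Mir30d and Snora81 were the 2 rows called in all 4 guide pairs. For Mir30d the log2 fold changes were 1.68 (sgMtdh-1 against sgMiat-6), 2.84 (sgMtdh-2 against sgMiat-96), 2.04 (sgMtdh-1 against sgMiat-96) and 2.49 (sgMtdh-2 against sgMiat-6), with edgeR adjusted p-values of 6.98e-05 to 0.00527. For Snora81 they were -2.57, -3.72, -3.33 and -2.96 in the same order, with adjusted p-values of 0.00417 to 0.017; with library totals alone, or a minimum count of 30, Snora81 was not called in all 4 pairs. Neither passed between guides of the same target: between the Miat guides the log2 difference was -0.36 for Mir30d and 0.75 for Snora81, and between the Mtdh guides 0.80 and -0.39. The p-values of the guide pairs measure spread between libraries that carry the same guide, part of which may be technical. The pairs reuse the libraries of the main comparison, so they are not separate support for the 2 calls.

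Guide pairs that share no library gave little common pattern outside these rows. Between sgMtdh-1 against sgMiat-6 and sgMtdh-2 against sgMiat-96, the log2 fold changes of the 138 rows had a Pearson correlation of 0.15 across rows (Spearman 0.16) and the same sign in 75 rows. In the other split, sgMtdh-1 against sgMiat-96 and sgMtdh-2 against sgMiat-6, the Pearson correlation was -0.01 and 70 rows had the same sign. Rows are not independent replicates, and normalisation and dispersion are shared by all 4 pairs, so these values are descriptions.

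In the first split 6 rows were called in both pairs, 3 with the same sign (Mir30d, Snora81 and Snord49a) and 3 with opposite signs. Rprl3, an RNase P-like RNA, was 3.90 log2 units higher with sgMtdh-1 than with sgMiat-6, and its log2 fold change was -1.83 for sgMtdh-2 against sgMiat-96. Its levels were 311 and 356 CPM with sgMiat-6, 14477 and 8531 CPM with sgMiat-96, and 2316 to 5151 CPM in the 4 Mtdh libraries, which lay between the 2 Miat guides. Snord67 had the same arrangement, with log2 fold changes of 2.49 and -1.89. Snord45b had the mirrored one, with -1.68 and 2.02. For these rows the target contrast had adjusted p-values of 0.783, 0.654 and 0.874.

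**Figure D4:**
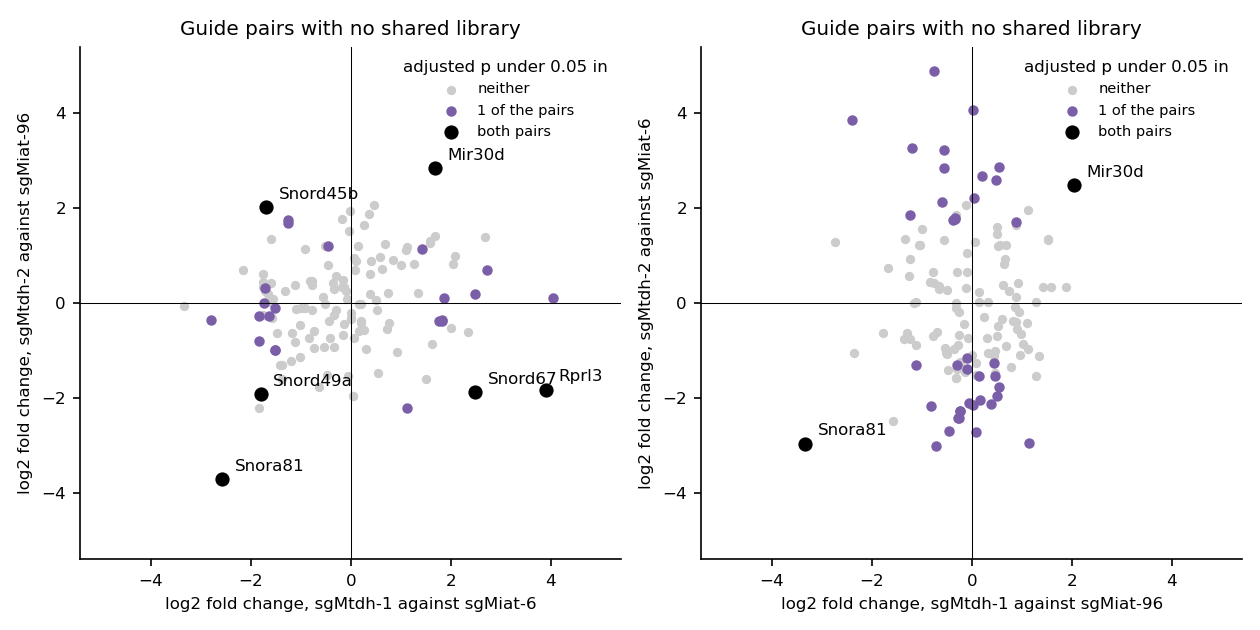
Log2 fold changes of the 138 rows in guide pairs that share no library, 1 split in each panel, with rows past the adjusted threshold in both pairs in black. Mir30d and Snora81 keep their quadrant in both panels, whereas Rprl3, Snord67 and Snord45b fall in quadrants of opposite sign in the left panel.

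Among C/D box snoRNAs 50 rows were tested, 13 higher and 37 lower with Mtdh guides, with a median log2 fold change of -0.59 against -0.18 for all rows. Over all 138 tested rows 54 were higher and 84 lower. No C/D row passed the adjusted test (edgeR). At an unadjusted p under 0.05, 1 C/D row was higher and 8 lower, against 23 of all 138 tested rows (16.7%). The count of lower rows depended on the libraries labelled sgMiat-6: without that guide 23 of 52 tested rows were lower and the median was 0.15. With upper-quartile factors, which moved the median of all rows from -0.18 to 0.07, 30 of 50 rows were lower.

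Snord49a, which guides methylation of the large ribosomal RNA, had 22491, 19371, 12056 and 7556 CPM in the Miat libraries. In the Mtdh libraries it had 2683, 9250, 2640 and 2511 CPM, so Mtdh 1-2 overlapped the Miat range and the other 3 lay below it. The log2 fold change was -1.84 (SE 0.52, edgeR adjusted p = 0.0884); without Mtdh 1-2 it was -2.55 with an adjusted p of 0.00886, and without both shallow libraries it was -1.10 with an adjusted p of 0.689. Of 30 other settings 6 gave a call. Snord49a passed in 3 of the 4 guide pairs, all but sgMtdh-1 against sgMiat-96, where the log2 fold change was -0.70. Its neighbours in the same host transcript, Snord49b and Snord65, were also lower by value, the 3 log2 fold changes spanning -1.84 to -0.93.

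Snord57, from an intron of Nop56, the gene of a core protein of C/D particles, differed between the Miat guides. It had 1916 and 2775 CPM with sgMiat-6 but 450 and 480 CPM with sgMiat-96, against 250, 395, 418 and 290 CPM in the Mtdh libraries. The groups did not overlap, yet the 2 Miat guides differed by a log2 value of -2.33 (edgeR adjusted p = 0.0049), more than sgMtdh-1 (-0.46) or sgMtdh-2 (-0.36) differed from sgMiat-96. The log2 fold change between targets was -2.03 (adjusted p = 0.136).

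Snord55, another C/D box snoRNA, differed less by guide. It had 347, 291, 249 and 285 CPM in the Miat libraries and 0, 129, 86.7 and 0 CPM in the Mtdh libraries. The 2 zeros fell in the shallow libraries Mtdh 1-1 and 2-2, where 3 counts are 107 and 72.4 CPM. Its log2 fold change was -2.05 (adjusted p = 0.173), and -1.21 without both shallow libraries. Snord43 was the C/D row that was higher by value with Mtdh guides at an unadjusted p under 0.05, and there the same 2 shallow libraries stood apart: 6224 and 7485 CPM in Mtdh 1-1 and 2-2 against 866 and 1024 CPM in Mtdh 1-2 and 2-1, and 804 to 2384 CPM in the Miat libraries. Without those 2 libraries the log2 fold change of Snord43 was -0.33, so its direction turned (main value 1.53).

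Cajal body RNAs gave no call either. Of 9 rows, all with counts, 5 were tested, 3 higher and 2 lower with Mtdh guides, with a median log2 fold change of 1.04. At an unadjusted p under 0.05, 2 were higher and 0 lower, against 16.7% of all tested rows. The median varied with the setting: it was 0.60 without sgMiat-6, and 0.18 without both shallow Mtdh libraries, 0.19 without sgMtdh-1 and 0.36 without sgMtdh-2. In each of the last 3 settings 6 rows were tested, 3 higher and 3 lower. Those medians are therefore of another set of rows, and the change in the median is not due to the libraries alone. Scarna6, from an intron of the autophagy gene Atg16l1, had 2256, 2447, 3665 and 3223 CPM in the Miat libraries and 7297, 5385, 7446 and 7847 CPM in the Mtdh libraries. The groups did not overlap, and the log2 fold change of 1.27 (SE 0.45) had an adjusted p of 0.223. Scarna2 had 94.0 and 112 CPM with sgMiat-6, 268 and 690 CPM with sgMiat-96 and 483 to 1016 CPM with Mtdh guides, with a log2 fold change of 1.33 (adjusted p = 0.274). For Scarna9 the log2 fold change was 1.04 (adjusted p = 0.366). Scarna3a and Scarna3b, whose rows share their reads with Mir1843b and Mir1843a, were the members that were lower by value.

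As a share of each library, Cajal body RNAs were 0.263%, 0.304%, 0.586% and 0.375% of all counts in the Miat libraries and 1.07%, 0.642%, 0.775% and 1.11% in the Mtdh libraries. The means were 0.382% ± 0.143 and 0.897% ± 0.226 (two-sided exact permutation p = 0.0286, the smallest that 4 against 4 can give; adjusted p = 0.19 over 10 RNA classes, n = 4 each), with no overlap. The control had 1.81% ± 0.138, above both groups, but its Rn45s share was lower (55.2% ± 1.17 of all counts). Of the counts outside Rn45s, Cajal body RNAs were 4.04% ± 0.269 in the control. That share was 3.20% ± 0.384 with Mtdh guides and 1.60% ± 0.674 with Miat guides. In bulk libraries fewer cells that make an RNA and less of it in each cell cannot be told apart.

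None of the 10 RNA classes passed the adjusted threshold as a share of all counts, and Cajal body RNAs were the 1 class at an unadjusted exact p under 0.05. The smallest exact permutation p of 4 against 4 is 0.0286. After adjustment over 10 or 9 classes 1 class alone therefore could not pass, however far apart its libraries stood. The ribosomal precursor Rn45s took 72.1% ± 5.83 of the counts with Mtdh guides and 75.0% ± 5.95 with Miat guides (exact permutation p = 0.514, n = 4 each). miRNA precursors took 4.64% ± 0.728 and 2.85% ± 1.11 (exact permutation p = 0.0571, n = 4 each). Outside Rn45s 0 of 9 classes passed the adjusted threshold, and 2 had an unadjusted exact p under 0.05: Cajal body RNAs at 3.20% ± 0.384 against 1.60% ± 0.674, and H/ACA snoRNAs at 1.04% ± 0.490 against 2.72% ± 1.43 (both exact permutation p = 0.0286, adjusted p = 0.129, n = 4 each). The H/ACA share includes Snora81, which was already called, so its test is not separate from that call. Without Snora81 the H/ACA shares were 0.867% ± 0.391 and 1.07% ± 0.410 (exact permutation p = 0.514, n = 4 each). With Snora81 the nearest libraries were Mtdh 2-2 at 1.59% and Miat 6-1 at 1.60%. C/D box snoRNAs took 25.1% ± 3.65 with Mtdh guides and 35.2% ± 5.79 with Miat guides (exact permutation p = 0.0571, n = 4 each).

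**Figure D5:**
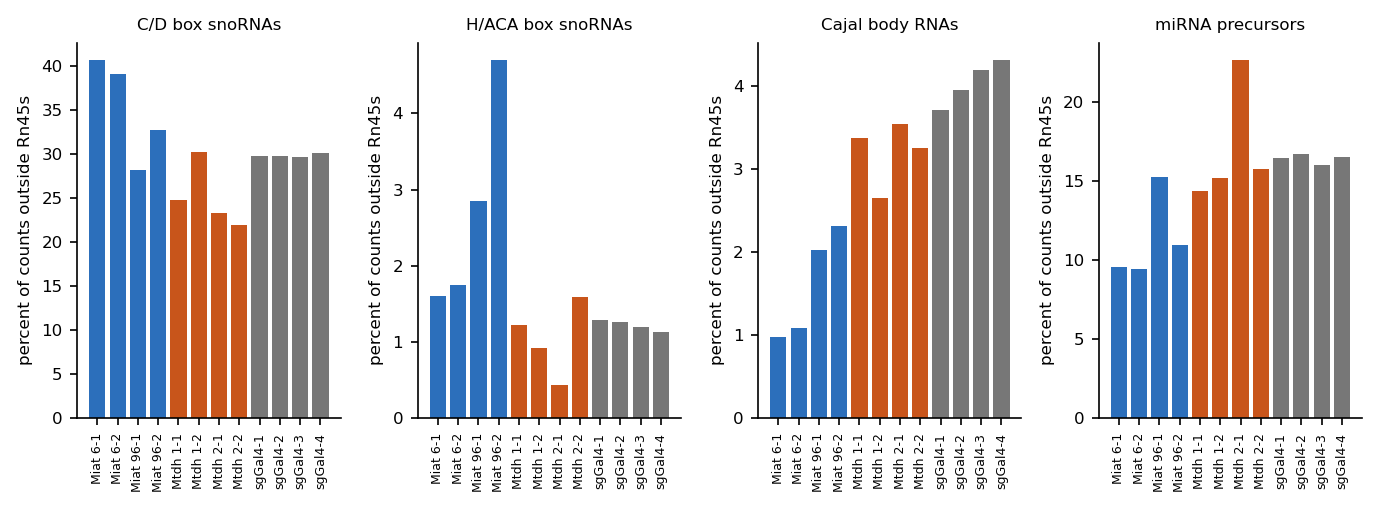
Share of the counts outside Rn45s taken by 4 RNA classes in each of the 12 libraries, Miat in blue, Mtdh in orange and control in grey. Cajal body RNAs and H/ACA snoRNAs do not overlap between Miat and Mtdh libraries, while C/D snoRNAs and miRNA precursors do. The H/ACA share includes Snora81, and its nearest libraries are Miat 6-1 at 1.60% and Mtdh 2-2 at 1.59%.

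The 8 H/ACA snoRNAs tested, of 36 rows and 33 with counts, were 1 higher and 7 lower with Mtdh guides, with a median of -0.62; Snora81 was the only one past the threshold. Without sgMiat-96 14 rows were tested, a larger set, with 7 higher and 7 lower and a median of 0.08. With upper-quartile factors the 8 rows were 3 higher and 5 lower, with a median of -0.32. Snora62 had a log2 fold change of -0.65 (adjusted p = 0.573) and Snora7a of -0.81 (adjusted p = 0.507). Snora7a was uneven among the Miat libraries, at 166, 309, 1512 and 675 CPM.

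Among all miRNA precursors and their hosts 27 rows of 1122 were tested. With Mtdh guides 9 were higher and 18 lower, with a median of -0.39. Over all 138 tested rows 54 were higher and 84 lower. Mir30d was the only miRNA row that passed. At an unadjusted p under 0.05, 1 miRNA row was higher and 3 lower, against 23 of all 138 tested rows (16.7%). Mir17hg and Mir92-1 are both among the 3 lower rows. Without sgMiat-6 30 rows were tested, a larger set, with 15 higher and 15 lower and a median of -0.03. With upper-quartile factors the 27 rows were 12 higher and 15 lower, with a median of -0.16. The miR-17-92 cluster, known as a growth-promoting cluster in Hedgehog-driven medulloblastoma, had 3 tested rows, all lower by value. Without sgMiat-6 it had 4 tested rows, 2 higher and 2 lower, with a median of -0.35. Mir92-1 had 976, 825, 325 and 510 CPM in the Miat libraries and 179, 463, 197 and 121 CPM in the Mtdh libraries, with a log2 fold change of -1.40 (adjusted p = 0.223), and of -0.72 without both shallow libraries. The groups overlapped through Mtdh 1-2, and Mir92-1 was called in 1 of the 4 guide pairs, sgMtdh-2 against sgMiat-6 (log2 fold change -2.43, edgeR adjusted p = 0.00944). The host row Mir17hg differed from Mir92-1 by 1.5% of its counts, so it counts nearly the same reads, and Mir20a had a log2 fold change of -1.16 (adjusted p = 0.365), which turned to 0.30 without sgMiat-6.

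Other miRNA families did not pass. The 4 tested miR-181 rows were all lower by value, from -0.75 to -0.06, and Mir181a-1 was 817 ± 149 CPM with Mtdh guides and 854 ± 251 CPM with Miat guides. The 4 let-7 rows, with the host row Mirlet7bhg among them, had a median of -0.17, with Mirlet7b at 0.10 (adjusted p = 0.97). Mirlet7bhg had 64 counts in Miat 96-1, against 46 for Mirlet7b and 18 for Mirlet7c-2. In Mtdh 2-1 these counts were 53, 40 and 13, so the host row may count the same reads again. Among the neural miRNAs the 3 miR-9 rows were lower by value and the 2 miR-7 rows higher, with Mir9-1 at -0.91 (adjusted p = 0.43). Within each of these 2 families the rows had similar counts in most libraries. Mir9-2 and Mir9-3 differed by 5.19% of their counts, so the rows of a family are not separate measurements. Mir351, from an X-linked cluster, had a log2 fold change of 0.33 (adjusted p = 0.815), with 398 and 206 CPM for sgMiat-6 and 1378 and 1289 CPM for sgMiat-96. Mir677 had -0.58 (adjusted p = 0.524).

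Abundant structural RNAs gave no call. Rn45s had a log2 fold change of -0.23 (SE 0.24, adjusted p = 0.647). The rows Mir6538 and Mir6236, grouped with the ribosomal precursor, had -1.32 (adjusted p = 0.252) and -0.81 (adjusted p = 0.378). Rmrp, the RNA of the nuclease MRP that cuts pre-ribosomal RNA, had 61876 ± 6419 CPM with Mtdh guides and 59284.5 ± 21456 CPM with Miat guides (log2 fold change 0.06, 95% interval -0.64 to 0.76). Rpph1, the RNA of RNase P, which trims precursor tRNAs, had 8228, 7594, 3585 and 7557 CPM in the Mtdh libraries and 4426, 4379, 3866 and 2009 CPM in the Miat libraries, with a log2 fold change of 0.87 (adjusted p = 0.365).

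Long non-coding RNAs and the remaining small RNAs gave no call. Tug1 had 600, 665.7, 823 and 615 CPM in the Miat libraries and 250, 320, 402 and 410 CPM in the Mtdh libraries; the groups did not overlap, and the log2 fold change was -0.95 (adjusted p = 0.365). Malat1 had -0.46 (adjusted p = 0.671) and Kcnq1ot1, the antisense RNA of an imprinted locus, had 0.45 (adjusted p = 0.683). Among snoRNA hosts Gas5 had 0.59 (adjusted p = 0.43) and Snhg8 -0.82 (adjusted p = 0.527). Snord47 lies over an exon of Gas5 and Snora24 over an exon of Snhg8, so these host rows may include snoRNA reads. The vault RNA Vaultrc5 had 0.86 (adjusted p = 0.43), and the minor spliceosomal RNAs Rnu11 and Rnu12 had -0.18 and 0.12. The remaining rows without overlap were B230208H11Rik, 2 variants counting nearly the same reads, higher by value with Mtdh guides (log2 fold changes 1.46 and 1.45), and Snord65, Snord96a and Gm4566, lower by value (-1.51, -1.04 and -1.21).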

How the data were processed

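The deposited tables give raw counts, FPKM and TPM per RefSeq transcript, per the file headers. The authors' FPKM and TPM columns were not used. Per the submitters' processing notes, STAR with GRCm38 and mm10 was used; for the counter, versions, trimming, strand and multi-mapped reads the sources used here give nothing. Reads of near-identical or nested RNAs may therefore be split or counted more than once: 11 pairs of tested rows differed by at most 10% of their counts. Rows of 1 symbol with identical counts were counted once.

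The 8 libraries' counts entered edgeR 4.0.16 (R 4.3.3; filterByExpr, minimum count 10 and minimum total 15; TMM factors of 0.804 to 1.27; quasi-likelihood fit with 1 term per target, common dispersion 0.304), two-sided, with Benjamini-Hochberg adjustment at 0.05. A second fit had 1 term per guide. Shares were set against each other by exact permutation, two-sided (Python 3.11.15, scipy 1.17.1). The permutation took libraries as exchangeable, so n counts libraries and not guides. In limma-voom the consensus correlation of row values within a guide was 0.438. A floor of 3 counts was 20.4 to 107 CPM; floors and intervals cover counting error only. limma 3.58.1, DESeq2 1.42.0 and other scalings, filters and sets of libraries were alternatives. The text names rows past the threshold, up to 3 tested members of each list, and Rn45s, Rmrp, Rpph1, Mir30d, Mir92-1 and Miat. Other rows, those without overlap or called in guide pairs among them, were named after their values were seen. Members and lists were chosen with earlier results of these data known. Of the 138 tested rows 134 matched a RefSeq gene.

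Of the other lists, the imprinted chromosome 12 cluster, the brain-specific and pre-ribosomal cleavage snoRNAs and both marker lists had 0 tested rows; the Hedgehog medulloblastoma miRNAs had 2, both lower by value.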

Additional observations from a re-analysis of the deposited data

Results flagged for a closer look

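In 96 groups of 4 libraries, 10 had 1 library far from the other 3 by Dixon's criterion. That criterion flags about 1 in 20 independent groups by chance; these groups share libraries, so the number flagged was not set against it. Among the RNAs that passed, Snora81 stood at 6956 CPM in Miat 96-2, against 2888 to 3052 CPM in the other Miat libraries. In the same library Rn45s took 83.9% of the counts, against 71.2% to 73.0%, and Scarna9 stood at 270 CPM, against 103 to 116 CPM. In Miat 96-1 Mir6538 stood at 14840 CPM, against 3508 to 4281 CPM. In Miat 6-2 Mirlet7c-1 stood at 319 CPM, against 120 to 145 CPM.

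In the Mtdh group, Snord49a stood at 9250 CPM in Mtdh 1-2, against 2511 to 2683 CPM. Mtdh 2-1 had Mir30a at 543.7 CPM, against 150 to 215 CPM, and Rpph1 at 3585 CPM, against 7557 to 8228 CPM. Rnu12 was at 435 CPM in Mtdh 2-2, against 13.6 to 39.4 CPM. Mir9-1 was at 0 CPM in Mtdh 1-1, against 145 to 150 CPM, and 3 counts are 107 CPM in that library.

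For 6 of the 38 tested RNAs named by rule, against 31 of all 138 tested rows (22.5%), the contrast with the Mtdh group depended on which Miat guide was used, tested as the difference between the Miat guides (edgeR, 1 term per guide). Rows named after their values were seen are not among the 38. Of these, Snord57, Rprl3, Snord67 and Snord45b were also called between the Miat guides. The log2 difference, sgMiat-96 minus sgMiat-6, was -2.22 for Mir20a (adjusted p = 0.0295), 2.13 for Mir351 (0.00513), 2.19 for Scarna2 (0.024), 2.21 for Snora7a (0.0229), -1.40 for Snord15a (0.00677) and -1.65 for Snord47 (0.0049).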

How the results depend on the processing

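The count of 2 called rows was the same, or within 1.5 times, under DESeq2 size factors, upper-quartile factors, library totals with or without Rn45s, limma-voom with or without guide as a random effect, a robust fit, a fold minimum of 1.5 and rows of 1 symbol summed. It was 8 with every row that had a count (1617 tested), 6 with a minimum count of 30 (70 tested), 4 by the DESeq2 Wald test, 11 with 1 term per guide, 6 with all 12 libraries, and 1 among miRNA precursors alone, which leaves Snora81 out. Leaving out each library in turn gave 1 to 3 calls. Without sgMiat-96 there were 35, without sgMtdh-1 1, and without sgMtdh-2 0 (9 at an unadjusted p under 0.05), each with 2 libraries against 4; the cause was not tested. With the last number of the name as a replicate block the count was 2; same-numbered libraries had correlations of -0.31 to 0.37 between their deviations, so the numbers are not taken to pair them. Of the settings added after seeing the data, 1 row was called without both Mtdh libraries under 50000 counts, and 2 with Rn45s share added as covariate or without host rows that repeat an inner row. Mir30d kept its direction in 31 of 31 settings and its call in 30 (log2 fold change 1.84 to 2.77; adjusted p = 0.186 without sgMtdh-2). Snora81 kept its direction in 30 of 30 and its call in 26 (-3.88 to -2.70); the adjusted p was 0.06 without Mtdh 1-1, 0.256 without sgMtdh-1, 0.186 without sgMtdh-2 and 0.132 without both shallow libraries. Over the 4 guide pairs there were 75 calls, 64 with DESeq2 size factors, 45 with library totals alone and 56 with a minimum count of 30; Snora81 was not called in all 4 pairs under the last 2. For class shares, leaving out a library gives 3 against 4, for which the smallest exact permutation p is 0.0571. Depth limits the 2 shallow Mtdh libraries most, where 3 counts are 72.4 and 107 CPM.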
